A study of Arabidopsis thaliana with 12 samples.

Results

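The response of auxin-grown Arabidopsis thaliana seedlings to antimycin A was measured on 6 Affymetrix ATH1 arrays, 3 of treated and 3 of untreated seedlings, out of 12 arrays in the series. Antimycin A is an inhibitor that blocks complex III in mitochondria. The arrays were chosen by their titles, and all 22746 probe sets other than the maker's controls are described. Seedlings of Col:LUC, a line of the ecotype Col-0, grew for 10 days on B5 medium and then for 3 days on B5 medium with 4.5 µM NAA, a synthetic auxin. One group then received 50 µM antimycin A for 3 hours and the other did not. The other 6 arrays hold the same line after the same 10 days on B5 and 3 more days on plain B5, with or without the same antimycin A treatment, and serve here only to show where the response on NAA differs. Each group is labelled as biological triplicate. All 4 groups share the line Col:LUC; what the construct behind that name is, and whether untreated seedlings received the solvent, the labels do not say. The growth text in the labels also names Attim17-1 seeds, but no array carries that genotype in its title.

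Plant mitochondria pass electrons from NADH and succinate through complexes I to IV, and complex III is the step that antimycin A blocks. Blocked chains are known to signal to the nucleus, where a set of genes for mitochondrial stress proteins, alternative dehydrogenases, detoxifying enzymes and transporters is then read more strongly. This is called the mitochondrial retrograde response. NAA acts as auxin does: it is known to induce genes that inactivate auxin and to start lateral roots.

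Intensities are the deposited linear values in arbitrary units. Fold changes are differences of log2(intensity + 16) between group means, with the SE of limma's fit over all 12 arrays, and a transcript is said to have risen or fallen where limma's adjusted p lay below 0.05. A rise or fall by a number with no unit is on this log2 scale. The added 16 makes the fold change of dim transcripts smaller than the ratio of their intensities. Whole seedlings were measured, so a lower level may come from fewer cells of a type or from less RNA per cell, and these cannot be told apart.

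The 6 arrays had median intensities of 38.8 to 39.7. Arrays of the same group correlated at 0.99 to 0.996 over all probe sets, and arrays with and without antimycin A at 0.948 to 0.954. The probe sets that read the 5′ and the 3′ end of GAPDH, a check of RNA integrity, gave a ratio of 62.9%, 38.9% and 82.3% on the untreated arrays and of 80.6%, 52.3% and 60.8% on the treated arrays. Array number 2 was the lowest of its group in both, and the actin probe sets ordered it the same way. The actin ratios were far lower, at 5.53%, 2.15% and 9.41% on the untreated and 8.59%, 3.36% and 4.23% on the treated arrays. The control for 25S ribosomal RNA read 6081 ± 477 without and 12030 ± 317 with antimycin A (SD, n = 3), against 5385 ± 347 and 8244 ± 175 on B5. With the GAPDH ratio as a covariate of the fit, a setting chosen after seeing the data, 2817 probe sets rose and 3361 fell, and without both arrays of number 2 on NAA 2093 rose and 2337 fell. The part of the ribosomal RNA signal in the results was not tested. Defining markers of root hairs, EXPA7 and EXPA18, read above 100 in untreated seedlings, and that of leaf mesophyll, RCA, read 8511 ± 629.5. The markers of stomatal precursors SPCH, MUTE and FAMA (listed as FMA) and of the shoot meristem, CLV3, read between 4.76 and 21.8 on every array on NAA, and none of the listed markers of endodermis or vasculature could be matched to a probe set. A listed gene counts as measured here only where the annotation pairs it with a probe set that has no other gene.

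Antimycin A moved 2643 probe sets up (11.6% of those tested) and 3005 down (13.2%). Both shares are the background for the counts of list and family members that rose or fell below. The rises were larger than the falls. At 2-fold or more 989 rose (4.35%) and 719 fell (3.16%), at 8-fold 90 rose and 34 fell, and at 32-fold 10 rose and none fell. The 3 treated arrays were all above the 3 untreated ones for 17.2% of the probe sets and all below them for 18.9%. The median log2 fold change was 0.78 among the rises, -0.62 among the falls and 0.01 over all probe sets. The share that fell was highest among bright transcripts: of 1320 probe sets with a mean intensity of 1000 or more, 25.2% fell and 18.5% rose. Of 9329 probe sets with a mean below 20, near the floor of the arrays, 3.66% fell and 2.29% rose. Of 6746 with a mean of 100 to 1000, 20.7% fell and 21.1% rose. The background given for lists and families was not matched for intensity, so it is low for a list of bright genes.

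**Figure D1:**
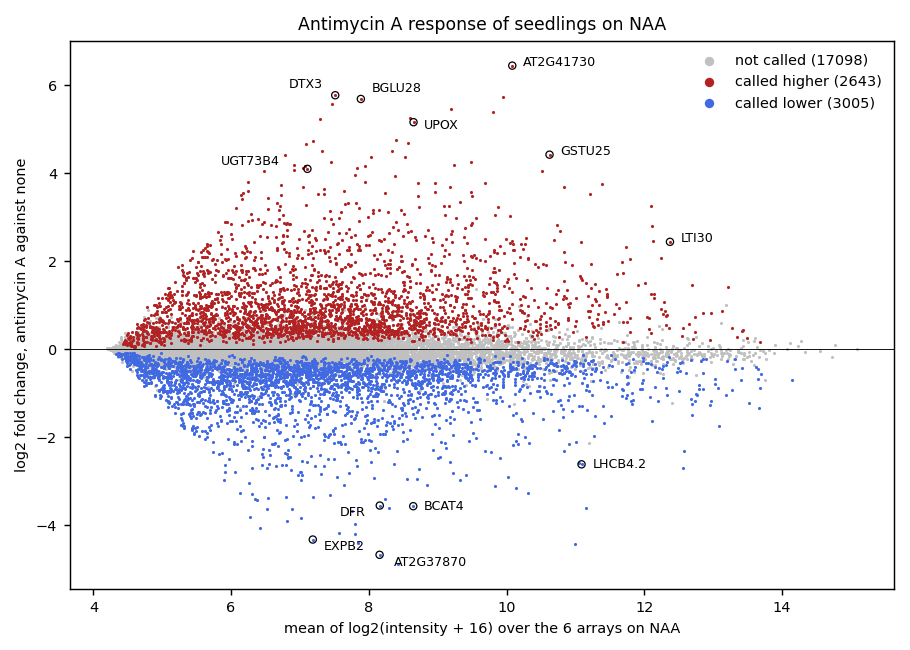
Log2 fold change with antimycin A on NAA (vertical axis) against the mean of log2(intensity + 16) over the 6 arrays on NAA (horizontal axis), 1 point per probe set, with called probe sets in colour and 12 genes labelled. The labelled rises lie between 2.44 and 6.45 and the labelled falls between -2.62 and -4.67.

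All 11 measured genes of the mitochondrial dysfunction list (22 listed) rose, with a median log2 fold change of 4.26, where 11.6% of all probe sets rose. The list gathers genes known to rise when mitochondria are impaired, so its direction here is no independent evidence. The highest was AT2G41730, which read 88.5, 110.3 and 103 without and 10386, 10071 and 9899.9 with antimycin A (log2 fold change 6.45 ± 0.13, adjusted p = 2.83e-08). The 2 groups lay far apart. Its probe set is of a kind that may also read related transcripts.

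Mitochondrial proteins stood among these genes. UPOX (AT2G21640), a small protein of mitochondria known to respond to oxidative stress, read 41.7, 72.2 and 43.5 without and 2232, 2166 and 2804 with antimycin A (log2 fold change 5.16 ± 0.19). AT12CYS-2 (AT5G09570), a twin-cysteine protein known from mitochondria though not only there, read 35.5, 57.9 and 26.6 and 823, 935 and 1031 (log2 fold change 4.11 ± 0.20). HSP23.5 (AT5G51440), a small heat shock protein of mitochondria, read 40.0, 38.3 and 42.1 and 798, 868 and 922 (log2 fold change 3.97 ± 0.19). In each of the 3 genes the groups lay far apart, and the untreated arrays of AT12CYS-2 spread the most for their level. AT2G32020 rose from 9.74, 9.92 and 8.56 to 1524, 1057 and 1075 (log2 fold change 5.58 ± 0.13), and AT5G43450 from 123, 134 and 193 to 3262, 2889 and 3230.0 (log2 fold change 4.26 ± 0.23). AT2G32020 lay near the floor in untreated seedlings and AT5G43450 above it, with no overlap of the groups in either.

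The inner membrane also carries alternative NADH dehydrogenases, which feed electrons into the chain without pumping protons. Of 5 measured genes of this list (9 listed, uncoupling proteins included) 2 rose, against 11.6% of all probe sets. NDB2, an external NADH dehydrogenase, read 160.5, 121 and 206 without and 734, 657 and 685 with antimycin A (log2 fold change 2.01 ± 0.20, adjusted p = 0.000105). NDB4 rose from a low level, 4.90, 7.08 and 5.49, to 82.1, 81.5 and 141 (log2 fold change 2.39 ± 0.16). NDB1, NDB3 and the matrix and plastid enzyme NDC1 were not called, with log2 fold changes of -0.37, 0.01 and 0.11, and NDB3 read at the floor on all 6 arrays.

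Nuclear genes of the standard chain changed little. Of 12 measured nuclear genes for its complexes (23 listed) none rose and 2 fell by limma's adjusted p. Over all probe sets 11.6% rose and 13.2% fell. The median of the 12 was -0.21, and at an unadjusted p below 0.05 the counts were 0 and 3. Both that fell encode the same subunit of cytochrome c oxidase: COX5B-1 went from 571, 525 and 537 to 264, 228 and 283 (log2 fold change -1.03 ± 0.10) and COX5B-2 from 639.7, 667 and 678 to 572, 520.2 and 527 (log2 fold change -0.29 ± 0.07), the latter a call lost in 4 of 12 fits that each left out 1 array, with an adjusted p of up to 0.0649. Cytochrome c1, a subunit of complex III itself, read 1162, 744 and 1226 and 741, 725 and 805 in its gene CYC1-1 and was not called (adjusted p = 0.154, but without untreated array 2, adjusted p = 0.0123). Genes that lie on the mitochondrial genome form a separate group. Of 16 measured by the names the annotation gives, 5 rose and none fell by limma's adjusted p (8 and 0 at an unadjusted p below 0.05), with a median of 0.28 and all 16 estimates above 0, and 11.6% of all probe sets rose. This group was formed after its values were seen. The cytochrome oxidase subunit gene cox1 went from 126, 195 and 125 to 311, 312 and 295 (log2 fold change 0.99 ± 0.15), and ccb452, which serves cytochrome c assembly, from 34.6, 33.4 and 29.2 to 111, 102 and 90.8 (log2 fold change 1.28 ± 0.15). The control for 25S ribosomal RNA also read higher on the treated arrays, and its part in these rises was not tested.

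Transporters and conjugating enzymes that remove foreign or harmful compounds held several of the largest rises. DTX3 (AT2G04050), a membrane exporter of the MATE family, read 9.42, 7.22 and 9.45 without and 1284, 1193 and 1550.0 with antimycin A (log2 fold change 5.77 ± 0.18). AT2G04070, of the same list, read 4.46, 4.12 and 6.31 and 215, 211 and 269 (log2 fold change 3.56 ± 0.15). Both were at the floor in untreated seedlings, so the ratio of their intensities is far above the fitted change.

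Glycosyltransferases of the UGT family attach sugars to hormones, phenolics and foreign compounds. Of 47 measured, 11 rose and 10 fell, where 11.6% and 13.2% of all probe sets did. UGT73B4 read 18.4, 17.0 and 16.5 without and 556, 493 and 624 with antimycin A (log2 fold change 4.10 ± 0.15), and UGT73B5 30.9, 28.3 and 29.3 and 625, 406 and 509 (log2 fold change 3.52 ± 0.22). UGT87A2 rose by 2.54, and UGT76B1, which glucosylates isoleucic acid and salicylic acid, by 2.26. On the other side UGT85A5 fell to the floor, from 61.6, 64.3 and 73.6 to 8.95, 6.55 and 8.04 (log2 fold change -1.79 ± 0.12). Members of the UGT73B group thus rose while the flavonoid and glucosinolate enzymes named further on fell.

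Glutathione transferases split in the same way, with 3 of 13 measured genes rising and 4 falling, against 11.6% and 13.2% of all probe sets. GSTU25 went from 338, 319.6 and 317 to 7477, 6232 and 8331 (log2 fold change 4.42 ± 0.19, adjusted p = 8.46e-07) and GSTU22 from 337, 465 and 281 to 2884, 3121 and 3052 (log2 fold change 3.04 ± 0.17). GSTU20 was bright before treatment and fell from 4894, 4502 and 6336 to 729, 989 and 845 (log2 fold change -2.59 ± 0.18). GSTU26 (-1.66), GSTU18 (-1.20) and GSTU28 (-1.20) fell as well. Of 24 measured P450 genes 2 rose and 2 fell, near or below the background. Among 20 beta-glucosidases, enzymes that release sugars from glycosides, 3 rose and 3 fell, near the background. BGLU28, known to break down glucosinolates under sulfur shortage, read 9.55, 15.9 and 27.6 without and 1721, 1651 and 1671 with antimycin A (log2 fold change 5.69 ± 0.17, adjusted p = 1.81e-07). BGLU45 and BGLU46, which act on monolignol glucosides, rose by 1.78 and 1.68.

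**Figure D2:**
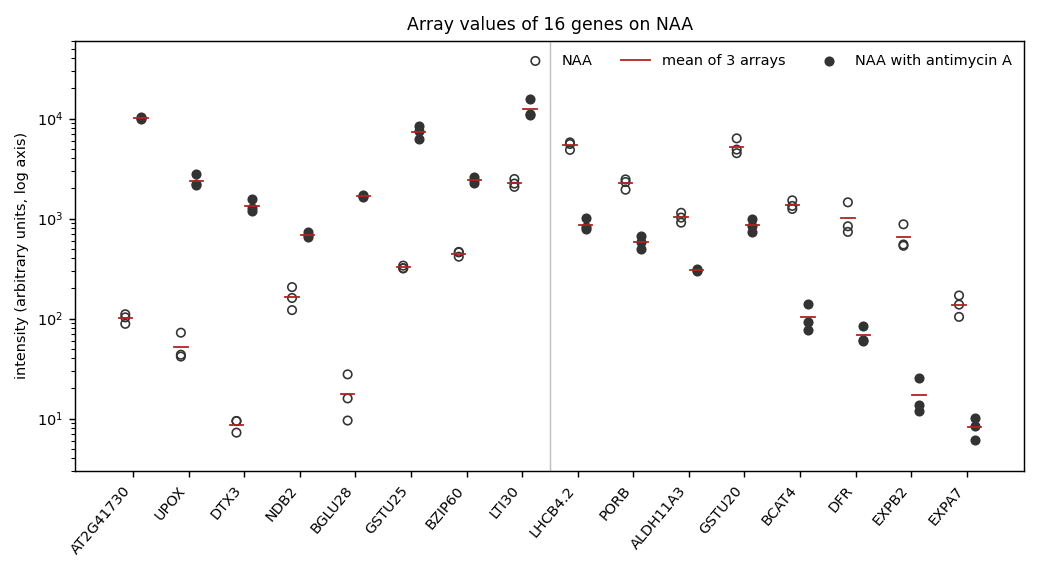
Intensity on each array (log axis, arbitrary units) for 16 genes, with the 3 untreated arrays as open circles and the 3 arrays with antimycin A as filled circles, all on NAA. In the 8 genes on the left the treated arrays are all higher, and in the 8 on the right all lower, with no overlap.

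Of 7 measured genes of antioxidant enzymes (37 listed) 1 rose and 3 fell, against 11.6% and 13.2% of all probe sets. The gene that rose was GRX480, a glutaredoxin of salicylic acid signalling, which read 10.4, 20.4 and 20.6 and 243, 228 and 212 (log2 fold change 2.89 ± 0.28). Those that fell were the peroxidase TAPX of the thylakoid (-0.57), the plastid peroxiredoxin 2CPA (-0.46) and the glutathione reductase listed as GR (-0.59). The call of GR was lost in 4 of 12 fits that each left out 1 array, with an adjusted p of up to 0.101. Lactate dehydrogenase (LDH, AT4G17260), the enzyme of lactate fermentation, rose from 171, 131 and 183 to 1716, 1569.5 and 1689 (log2 fold change 3.25 ± 0.13, adjusted p = 7.35e-07). PDC2, of ethanol fermentation, was not called (0.30, but without untreated array 3, adjusted p = 0.0226).

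Some genes are known to respond within minutes to wounding or to other stress. Of 9 measured (33 listed) 6 rose and 1 fell, with a median of 1.80, where 11.6% and 13.2% of all probe sets did. ZAT10 (listed as STZ), a zinc finger repressor, read 197, 162 and 321 without and 1131, 1267 and 1544 with antimycin A (log2 fold change 2.50 ± 0.27). CML38, a calmodulin-like calcium sensor, read 81.3, 118 and 115 and 641, 644 and 683 (log2 fold change 2.49 ± 0.37). The ubiquitin ligases PUB22, PUB23 and PUB24, which dampen immune responses, rose by 1.80, 2.58 and 1.26, the only 3 of 9 measured U-box ligases called. ZAT5 fell (-1.02).

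Of 6 WRKY transcription factors measured, 4 rose, against 11.6% of all probe sets: WRKY22 by 2.21, WRKY53 by 2.05, WRKY6 by 1.30 and WRKY47 by 0.81. WRKY53 and WRKY6 are known from senescence and WRKY22 from immune signalling. BZIP60, the factor that is spliced when proteins misfold in the endoplasmic reticulum, rose from 415, 459 and 464 to 2582, 2275 and 2452 (log2 fold change 2.41 ± 0.13, adjusted p = 3.56e-06). Both measured chaperone genes of that compartment fell, the calreticulin gene CRT1b from 2099.6, 1695 and 2477 to 832, 1064 and 1032 (log2 fold change -1.08 ± 0.18). The co-chaperone gene ATERDJ3B fell by 0.42, a call lost in 9 of 12 fits that each left out 1 array, with an adjusted p of up to 0.142. Heat shock genes had 4 rises among 7 measured, against 11.6% of all probe sets. Apart from HSP23.5 these were small and from low levels: HSP15.7 rose by 0.83, HSP17.6C by 0.92 and HSP26.5 by 0.41. The call of HSP17.6C was lost in 6 of 12 fits that each left out 1 array, with an adjusted p of up to 0.109. The call of HSP26.5 was lost in 9 of 12 fits that each left out 1 array, with an adjusted p of up to 0.13.

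Autophagy and senescence genes moved in both directions, 4 up and 3 down among 16 measured, against 11.6% and 13.2% of all probe sets. ATG8E, one of the proteins that coat the autophagosome, stood apart and rose from 220.1, 292 and 159 to 1325, 1484 and 1678 (log2 fold change 2.69 ± 0.22). The kinase gene ATG1A fell (-0.63). SAG29, a sugar transporter of senescing leaves, fell from 187, 124 and 358 to 42.3, 15.8 and 43.8 (log2 fold change -2.19 ± 0.34), with untreated arrays that spread widely and did not overlap the treated ones. Breakdown of branched-chain amino acids was split too: IVD rose from 59.5, 62.8 and 69.7 to 160.1, 177 and 193 (log2 fold change 1.27 ± 0.07) and MCCA by 0.88, while MCCB, the other subunit of the MCCA enzyme, fell by 0.44, a call lost in 5 of 12 fits that each left out 1 array, with an adjusted p of up to 0.107. ICL, the isocitrate lyase of the glyoxylate cycle, lay at the floor at 4.24, 4.46 and 4.28 and rose to 31.6, 27.2 and 31.0 (log2 fold change 1.18 ± 0.03).

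Of 4 measured genes for proteins of drying and cold (41 listed) 1 rose and 1 fell, against 11.6% and 13.2% of all probe sets. LTI30, a dehydrin, went from 2485, 2074 and 2237 to 15693, 10759 and 11139.5 (log2 fold change 2.44 ± 0.16, adjusted p = 8.09e-06). COR15B, a cold-regulated protein of the chloroplast, went from 2063, 2223 and 2653 to 693, 522 and 339 (log2 fold change -2.17 ± 0.25). Its relative COR15A was not called (-0.47, adjusted p = 0.555), with groups that overlapped. In COR15B and COR15A the treated arrays were spread widely, with array 3 the lowest.

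Of 8 measured photosystem and antenna genes (50 listed) 6 fell and none rose by limma's adjusted p (7 and 0 at an unadjusted p below 0.05). Their median was -0.93, and 13.2% of all probe sets fell. LHCB4.2, a minor antenna protein of photosystem II, read 5561, 4859 and 5775 without and 1002, 779 and 825 with antimycin A (log2 fold change -2.62 ± 0.19, adjusted p = 1.58e-05). LHCB4.1 fell less, from 7401, 6556 and 8195 to 4643, 3389 and 2849.5 (log2 fold change -1.05 ± 0.17). The photosystem I subunits PSAN and PSAE-1 fell (log2 fold changes -1.52 and -0.91), and the photosystem II subunits PSBW and PSBY fell (log2 fold changes -0.95 and -0.76). PSB27, a photosystem II assembly factor that was not in the list, fell by 1.15.

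Genes on the plastid genome were not called lower. Of 69 measured, 3 rose (atpH 0.84, petN 0.81 and psaB 0.24) and none fell by limma's adjusted p (6 and 0 at an unadjusted p below 0.05), with a median of 0.09. Over all probe sets 11.6% rose and 13.2% fell. The calls of petN and psaB were near the threshold. That of petN was lost in 7 of 12 fits that each left out 1 array, with an adjusted p of up to 0.114, and that of psaB was lost in 11 of 12 fits that each left out 1 array, with an adjusted p of up to 0.153. Their photosystem gene psbA read 3332, 5250.0 and 4084 without and 5468, 5899 and 5863 with antimycin A and was not called (adjusted p = 0.0752), but it was called in 8 of 25 other settings, among them the fit without untreated array 2, adjusted p = 0.0157. Carbon fixation by the Calvin cycle was also not called by limma in any of its 3 measured genes, RCA (-0.19), PRK (-0.30) and SBPASE (-0.09). Without treated array 1 all 3 were called lower (RCA adjusted p = 0.0379, PRK adjusted p = 0.0061 and SBPASE adjusted p = 0.0295). Photorespiration, which recycles the product of oxygen fixation, had 1 fall and 1 rise: the peroxisomal reductase HPR went from 2896, 2511 and 3301 to 1497, 1277 and 1408 (log2 fold change -1.04 ± 0.13), and the glycerate kinase GLYK (AT1G80380) from 434, 391 and 336 to 1065, 809.9 and 879.7 (log2 fold change 1.21 ± 0.12).

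In chlorophyll synthesis 3 of 6 measured genes fell and 1 rose, against 13.2% and 11.6% of all probe sets. PORB, which reduces protochlorophyllide in the light, read 2318, 1942 and 2462 without and 582, 490.4 and 662 with antimycin A (log2 fold change -1.93 ± 0.14, adjusted p = 1.33e-05). CHLM, of the magnesium branch, fell by 0.83, and HEME2 fell by 0.54. HEMA2, the form of the first enzyme of tetrapyrrole synthesis that is known mainly outside green tissue, rose by 1.28. ALDH11A3, a non-phosphorylating glyceraldehyde phosphate dehydrogenase of the cytosol, fell from 1022, 909.6 and 1142 to 308, 298 and 310.3 (log2 fold change -1.69 ± 0.09), the largest of 4 falls among 8 aldehyde dehydrogenases.

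**Figure D3:**
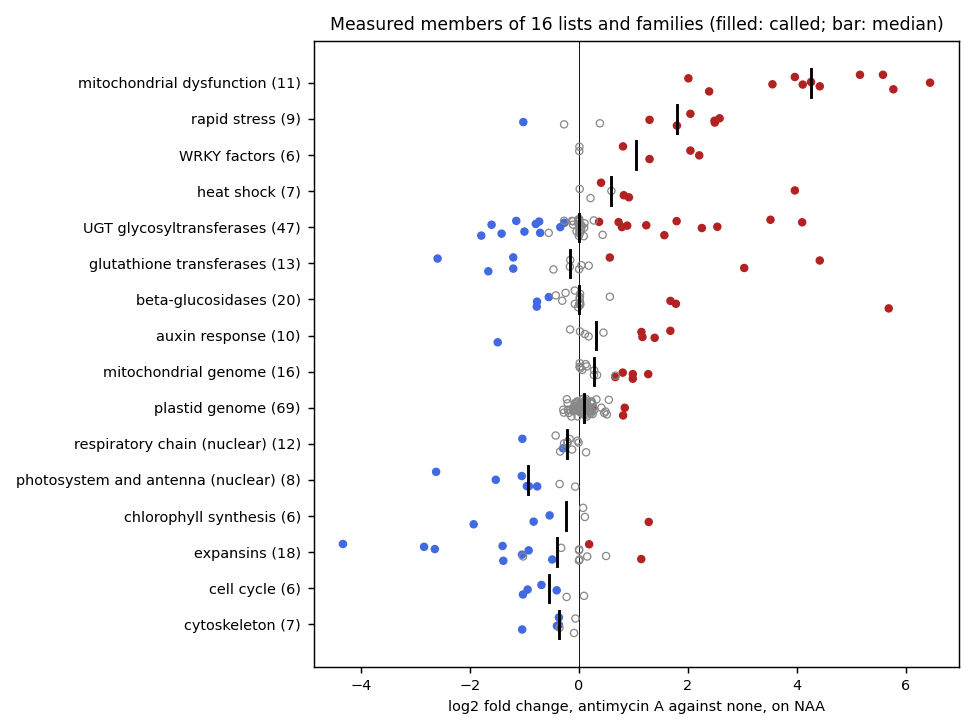
Log2 fold changes with antimycin A on NAA (horizontal axis) of the measured members of 16 gene lists and families, 1 point per gene, filled where limma called it, with the list's median as a bar. The mitochondrial dysfunction genes lie between 2.01 and 6.45, while photosystem genes of the nucleus lie below 0 and those of the plastid genome around 0.

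Of 5 measured phenylpropanoid and flavonoid genes (31 listed) 3 fell and 1 rose, against 13.2% and 11.6% of all probe sets. DFR, the reductase that commits flavonoids to anthocyanins, read 837, 735 and 1452 without and 61.0, 59.2 and 84.0 with antimycin A (log2 fold change -3.56 ± 0.43, adjusted p = 0.000286). The flavonoid glucosyltransferases UGT78D2 and UGT78D1 fell (log2 fold changes -1.42 and -0.71), the second a call lost in 8 of 12 fits that each left out 1 array, with an adjusted p of up to 0.123. CCR2, of lignin precursor synthesis, rose by 2.22. All 3 measured genes of glucosinolate synthesis fell. BCAT4, the first step of chain elongation of methionine, went from 1337, 1247 and 1520.3 to 76.6, 92.8 and 139.6 (log2 fold change -3.57 ± 0.22), and the glucosyltransferases UGT74C1 and UGT74B1 fell (log2 fold changes -1.09 and -0.73). BGLU28, on the breakdown side of that pathway, is the fourth measured gene of the glucosinolate list and rose, as given above.

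Expansins loosen cell walls during growth. Of 18 measured 8 fell and 2 rose, with a median of -0.40, where 13.2% and 11.6% of all probe sets did. The smaller of the 2 rises (0.19) lay at the floor, with at most 9.04 on any array. EXPB2, a beta-expansin, read 534, 550.0 and 876 without and 11.9, 25.4 and 13.7 with antimycin A (log2 fold change -4.33 ± 0.20, adjusted p = 1.31e-06). EXPA7 and EXPA18, which act in root hairs, went from 169.9, 138 and 104 to 8.38, 6.09 and 10.1 (log2 fold change -2.64 ± 0.19) and from 478, 329.7 and 422 to 55.7, 39.0 and 35.9 (log2 fold change -2.84 ± 0.18). EXPA7 and EXPB2 thus ended near the floor within the 3 hours. EXPA7 and EXPA18 are also the only measured genes of 12 listed root hair markers, and their summed level was 648, 467 and 526 without and 64.1, 45.0 and 46.0 with antimycin A. The part of root hairs in the fall of the other expansins was not tested.

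Of 9 measured XTH enzymes, which cut and rejoin xyloglucan, 3 rose and 2 fell, against 11.6% and 13.2% of all probe sets. XTH18 rose from 117, 137 and 83.9 to 734, 736 and 843 (log2 fold change 2.63 ± 0.21) and XTH20 by 1.98, while XTH32 fell by 1.37 and XTH26 fell to the floor, from 18.0, 17.6 and 11.2 to 4.91, 4.94 and 4.59. The pectin methylesterase PME61 fell (-0.67), and the other measured gene of this kind was not called (-0.25). PMEAMT, a methyltransferase that shares only the symbol stem, fell too (-0.48). The cytoskeleton list had 4 falls among 7 measured. TUB1 went from 467, 379 and 295 to 196, 143 and 187 (log2 fold change -1.04 ± 0.20). The cell cycle list had 4 falls among 6, where 13.2% of all probe sets fell. Those 4 were the mitotic kinases AUR1 (-0.41) and AUR2 (-0.94), the replication helicase subunit MCM7 (listed as PRL, -0.68) and the cell cycle inhibitor SIM (-1.02), so the list held both an inhibitor and drivers of division. The calls of AUR1 and SIM were less firm: that of AUR1 was lost in 3 of 12 fits that each left out 1 array, with an adjusted p of up to 0.06, and that of SIM was lost without untreated array 1, adjusted p = 0.055. Of 6 histones HTB1 (-0.65), HTB2 (-0.48) and the drought-induced linker histone HIS1-3 (-1.72) fell.

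Auxin genes also responded. Of 10 measured auxin response genes (26 listed) 4 rose and 1 fell, where 11.6% and 13.2% of all probe sets did. GH3.3, whose enzyme conjugates auxin to amino acids, read 3281, 2889 and 2840.1 without and 6042, 6366 and 8034 with antimycin A (log2 fold change 1.17 ± 0.20, adjusted p = 0.00224). DAO1 (AT1G14130), which oxidises auxin, rose by 1.39, while GH3.17 fell from 434, 391 and 392 to 172, 111 and 125 (log2 fold change -1.49 ± 0.19). The Aux/IAA repressors IAA30 and IAA29 rose from low levels, IAA30 from 15.9, 14.5 and 12.4 to 85.2, 77.4 and 80.8 (log2 fold change 1.68 ± 0.08) and IAA29 by 1.15. The other 5 Aux/IAA genes measured were not called.

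Of 5 measured genes of lateral root founding (14 listed) 3 fell and 1 rose, where 13.2% and 11.6% of all probe sets did. LBD29 and LBD16 are LBD transcription factors that act downstream of auxin in founding lateral roots. LBD29 fell from 273, 208 and 297 to 119, 111 and 104 (log2 fold change -1.10 ± 0.10), and LBD16 rose from 44.9, 30.7 and 37.1 to 96.1, 97.5 and 89.9 (log2 fold change 1.05 ± 0.11). PUCHI, a later regulator of the young primordium, fell by 0.64. PGLR (AT5G14650), a polygalacturonase of the cells that a lateral root passes through, fell from 436, 507 and 725 to 75.4, 63.9 and 52.2 (log2 fold change -2.82 ± 0.29, adjusted p = 0.000111).

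Sugar efflux carriers with SWEET as their symbol had 3 falls and 1 rise among 14 measured, against 13.2% and 11.6% of all probe sets. SAG29, given above, is of the same family but not among the 14, and its fall was larger (-2.19). SWEET16 and SWEET17, which sit in the vacuole membrane, fell (log2 fold changes -0.74 and -0.80), and SWEET4 fell to the floor (log2 fold change -1.18 ± 0.27). The gibberellin receptor gene GID1B rose by 1.82, and GID1A was not called (0.23). None of 4 proteasome and none of 4 reference genes measured was called by limma, with log2 fold changes of -0.28 to 0.17 among the reference genes. At an unadjusted p below 0.05, 1 of the proteasome and 2 of the reference genes were lower.

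Several lists had few measured genes, and their counts stand beside 11.6% of all probe sets that rose and 13.2% that fell. Of 4 measured genes of salicylic acid signalling 2 rose, of 3 of jasmonate synthesis and response 1 fell, and of 2 each of cytokinin signalling, the citric acid cycle and plant nutrition none was called by limma (at an unadjusted p below 0.05, 1 nutrition gene was higher and 1 lower, and none of the other 4). In the peroxisome AIM1, a multifunctional enzyme of fatty acid oxidation, fell by 0.70. TRXF2, a thioredoxin that activates plastid enzymes, fell by 0.88. CML42, a calmodulin-like protein, rose by 1.54. The transcription factor gene MYBC1 rose by 0.79.

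Among genes called at 2-fold or more, LTI30, AT2G41730, AT1G25275 and GSTU25 gained the most intensity, and AT1G25275 went from 5561, 6277 and 5659 to 15225, 15979 and 15363 (log2 fold change 1.41 ± 0.09). AT4G23670, AT2G19970, LHCB4.2 and GSTU20 lost the most intensity. AT4G23670 went from 12156, 11199 and 13027 to 5554, 4352 and 6243 (log2 fold change -1.18 ± 0.13) and AT2G19970 from 7705, 6978 and 8668 to 2817, 2441 and 2223 (log2 fold change -1.64 ± 0.14). PR-1-LIKE (AT2G19990), named for its likeness to a pathogenesis-related protein, fell from 2847, 2461 and 3276 to 454, 307 and 345 (log2 fold change -2.91 ± 0.18). The 20 largest rises were taken from called probe sets of 1 gene whose treated and untreated arrays did not overlap. Of 5648 called probe sets, 2805 had no single gene and could not enter. Of these 20 rises, 13 are known here only by locus code. AT5G42830 went from 58.2, 53.2 and 37.0 to 1914, 1429 and 1876 (log2 fold change 4.75 ± 0.17) and AT4G28460 from 5.85, 8.66 and 8.67 to 416, 529.5 and 541 (log2 fold change 4.42 ± 0.14), both from low levels. Of the 20 largest falls taken in the same way, 15 are known here only by locus code. They are led by AT2G37870 (1144, 1149 and 2202 to 14.2, 76.0 and 48.8) and AT5G03350 (1041, 1186 and 924 to 17.6, 38.7 and 50.6). In both sets of 20 the lack of overlap follows from how they were chosen. Array 1 of AT2G37870 was the lowest of the treated arrays and array 3 the highest of the untreated ones.

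The difference between the antimycin A effects on NAA and on B5 was tested directly, as an interaction over all 12 arrays. It was called for 2168 probe sets (9.53% of those tested), 1170 with a more positive effect on NAA (5.14%) and 998 with a more negative one (4.39%). In 684 of these the estimated effects had opposite signs on the 2 media. Without both arrays of number 2 on NAA 633 were more positive and 579 more negative. Leaving out 1 array at a time gave 832 to 1223 and 701 to 1102. Among the genes named below, HSP23.5, AT5G43450, AT2G04070, COX5B-1 and EXPA7 lost the call in the fit without both arrays of number 2 on NAA.

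The list of mitochondrial dysfunction held no gene with a more positive effect on NAA and 3 of 11 with a more negative one. HSP23.5 rose by 3.97 on NAA and by 5.31 on B5 (difference -1.35 ± 0.26, adjusted p = 0.0143), and the differences of AT5G43450 and AT2G04070 were -1.34 and -1.07, the former lost in 7 of 12 fits that each left out 1 array, with an adjusted p of up to 0.0797. For UPOX, the difference was -0.29 ± 0.26 (adjusted p = 0.673) and was not called. Heat shock genes pointed the same way in 3 of 7 cases, with HSP23.5 counted in both lists. Over all probe sets 4.39% had a more negative effect on NAA. HSP26.5 went from 7.71 ± 0.349 to 150.3 ± 12.8 on B5 (SD, n = 3) but from 6.87 ± 1.74 to 14.7 ± 5.87 on NAA (difference -2.40 ± 0.17, adjusted p = 0.000166). ROF2, a co-chaperone of heat shock proteins, was not called on NAA (0.22) and had an effect of 1.58 on B5 (difference -1.36).

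Detoxification differed by gene. BGLU28 rose further on NAA, to 1681 ± 35.7, than on B5, to 230.2 ± 28.1 (difference 2.40 ± 0.24, adjusted p = 0.000793). GSTU22 rose from 388 ± 64.6 to 618 ± 70.9 on B5 and from 361 ± 94.6 to 3019 ± 122 on NAA (difference 2.38 ± 0.25, adjusted p = 0.000914). UGT73D1 and ICL stood at the floor with and without antimycin A on B5, at 6.82 ± 0.201 and 4.35 ± 0.115 with it, and rose on NAA (differences 1.20 and 1.17). For GSTU25, UGT73B4 and UGT73B5, which had effects of 3.61, 4.29 and 3.77 on B5, the difference was not called.

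Several of the most negative differences were in genes whose untreated level was low on B5. GH3.3 went from 16.4 ± 7.98 to 1279.7 ± 284 on B5, and from 3003 ± 242 to 6814 ± 1069 on NAA (difference -4.16 ± 0.28, adjusted p = 0.000121). As a ratio the 2 treated groups of GH3.3 lay closer together than the 2 untreated ones, while in intensity they lay further apart. EXPB2 read 6.21 ± 1.67 and 5.33 ± 0.298 on B5, low throughout, and its fall was measured on NAA (difference -4.27 ± 0.28, adjusted p = 0.000102). LBD29, PUCHI and PR-1-LIKE also had low levels on B5 without antimycin A, at 5.68 ± 0.05, 9.27 ± 1.13 and 21.5 ± 8.16. Their differences were -1.13, -0.64 and -2.30. AT3G22060 rose from 19.4 ± 3.78 to 801 ± 177 on B5 and was not called on NAA, at 149 ± 2.78 and 188 ± 31.6 (difference -4.22 ± 0.23, adjusted p = 5.11e-05).

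A further arrangement was a positive effect on NAA and a negative one on B5. AT3G15450 went from 1459.8 ± 295 to 453 ± 71.7 on B5 and from 592 ± 44.8 to 1738 ± 156 on NAA (difference 3.17 ± 0.22, adjusted p = 0.000127), the largest positive difference among genes with a name or code. AT3G15630 did likewise, with effects of -1.63 on B5 and 1.37 on NAA (difference 3.00). MCCA had effects of -0.55 on B5 and 0.88 on NAA (difference 1.43). For IVD both estimates were above 0, at 0.19 on B5 and 1.27 on NAA (difference 1.08). The dehydrin LTI30 and ATG8E rose on both media and more on NAA, with differences of 1.19 and 1.40, the latter lost in 5 of 12 fits that each left out 1 array, with an adjusted p of up to 0.0595. Among the auxin genes that rose from low levels on NAA, IAA30, IAA29 and LBD16 had effects of 0.22, 0.02 and -0.19 on B5, and all 3 differences were called (1.46, 1.13 and 1.25).

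**Figure D4:**
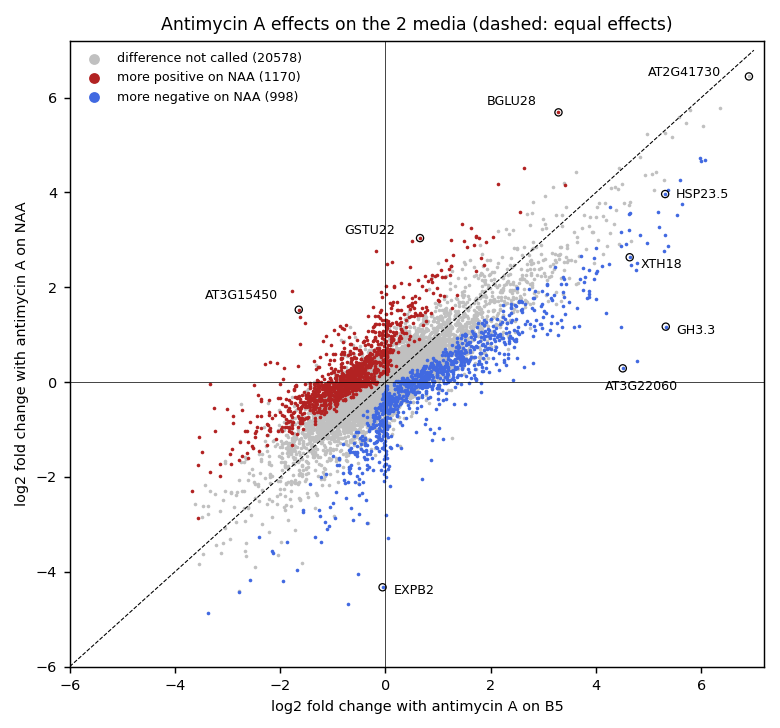
Antimycin A effect on NAA (vertical axis) against that on B5 (horizontal axis), both as log2 fold changes, 1 point per probe set, with the 2168 probe sets whose difference was called in colour. GH3.3, EXPB2, AT3G22060 and AT3G15450 lie far from the dashed line of equal effects.

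**Figure D5:**
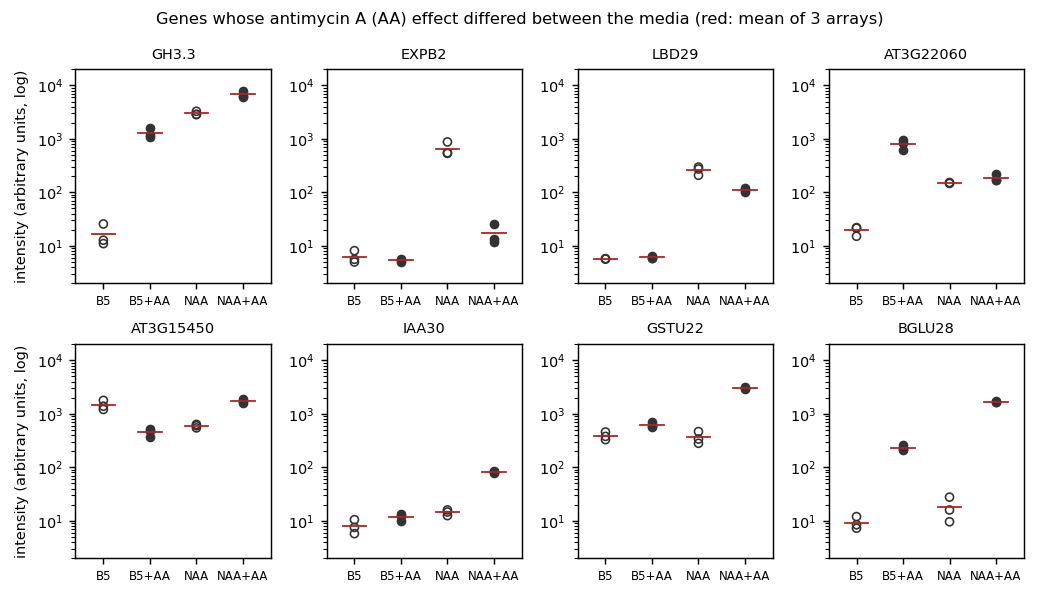
Intensity on each of the 12 arrays (log axis, arbitrary units) for 8 genes whose antimycin A effect differed between the media, with B5, B5 with antimycin A, NAA and NAA with antimycin A from left to right in each panel. On this log axis GH3.3 shows the 2 treated groups closer together than the 2 untreated ones, and EXPB2 shows 1 group high and 3 low.

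In the photosystem list the effect was more negative on NAA for PSAE-1 (difference -0.72 ± 0.11, with an effect of -0.19 on B5) and PSBW (difference -0.67 ± 0.09), and not called for LHCB4.2 (difference -0.83 ± 0.27, adjusted p = 0.0962, but without treated B5 array 3, adjusted p = 0.00525). The respiratory chain gene COX5B-1 likewise fell more on NAA (difference -0.73). The root hair gene EXPA7 had effects of -2.64 on NAA and -1.06 on B5 (difference -1.58, adjusted p = 0.00754), whereas EXPA18 gave a difference of -0.67 that was not called. Untreated levels of EXPA7 were 28.6 ± 10.4 on B5 and 137 ± 33.0 on NAA. SAG29, whose fall was measured on NAA, had an effect of 0.08 on B5 and a difference of -2.27 (adjusted p = 0.0203). XTH18 rose less on NAA than on B5, where its effect was 4.64 (difference -2.01).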

How the data were processed

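RNA of whole seedlings was measured on 12 single-colour Affymetrix ATH1 arrays, from 400 ng of total RNA each per the labels' protocols. The authors deposited 1 intensity per probe set and array on a linear scale. MAS5, RMA and Partek are named in the submitters' processing notes without their roles, and no source used here states the normalization. Of 22810 probe sets, 64 controls were left out of all tests. GEO's platform annotation gives 13513 of the others 1 gene, 503 several and 8730 none. Symbols were updated through locus codes and RefSeq (TAIR10.1), and 11789 of 13355 genes kept only a code. The brightest probe set over the 12 arrays stands for a gene with several.

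The values were used as deposited, as log2(intensity + 16). A limma 3.58.1 fit (R 4.3.3) with 4 group means over the 12 arrays left 8 residual degrees of freedom, and Benjamini-Hochberg adjustment covered all 22746 probe sets. Calls are at an adjusted p below 0.05. The fit was tested on simulated data. Members and gene lists were chosen with earlier results of these data known. Named are the 20 largest rises and falls, the 10 largest differences each way, up to 6 members of each list or family by adjusted p, the 8 largest gains and losses of intensity among genes changed 2-fold or more, and all measured mitochondrial dysfunction genes. Sequences and a motif search were not used here. Some genes are not reported here.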

Additional observations from a re-analysis of the deposited data

Results flagged for a closer look

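The antimycin A effect differed between NAA and B5 by the interaction test in 45 genes named above, given here as the effect on NAA minus that on B5 (log2). The sign was mixed within gene groups. Over all probe sets 5.14% had a more positive effect on NAA and 4.39% a more negative one. Of 18 expansins 4 had a more positive effect on NAA and 2 a more negative one, EXPB2 (-4.27) and EXPA7 (-1.58). Among the 4 was a gene at the floor, with at most 9.04 on any array (0.19). Of 9 XTH enzymes 1 was more positive, XTH20 (0.99), and 3 more negative, among them XTH18 (-2.01) and XTH26 (-0.61). Of 10 auxin response genes 2 were more positive and 2 more negative, with GH3.3 (-4.16) among the latter. IAA30 (1.46), IAA29 (1.13), LBD16 (1.25), LBD29 (-1.13), PUCHI (-0.64) and PGLR (-1.58) differed too. EXPB2, LBD29 and PUCHI lay near the floor on B5, where a fall could hardly be measured.

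The effect was more negative on NAA in HSP26.5 (-2.40), ROF2 (-1.36), HSP23.5 (-1.35), AT5G43450 (-1.34), AT2G04070 (-1.07) and ZAT5 (-0.92). It was also more negative in AT3G22060 (-4.22), AT2G37870 (-3.96), PR-1-LIKE (-2.30), SAG29 (-2.27), CCR2 (-1.57), BCAT4 (-1.41), COX5B-1 (-0.73), PSAE-1 (-0.72) and PSBW (-0.67).

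It was more positive on NAA in AT3G15450 (3.17), AT3G15630 (3.00), BGLU28 (2.40), GSTU22 (2.38), UGT78D1 (1.65), BGLU45 (1.27), UGT73D1 (1.20), UGT76B1 (1.02), GSTU18 (0.89) and UGT74C1 (0.60). The same sign was found for MCCA (1.43), ATG8E (1.40), LTI30 (1.19), ICL (1.17), GLYK (1.13), IVD (1.08), GID1A (0.97) and MYBC1 (0.74). Leaving out 1 array ended the call of GID1A, UGT74C1, XTH20, GSTU18, MYBC1, PGLR and UGT76B1 in 8 to 11 of 12 fits, and that of BCAT4 in 1, without treated array 2 on NAA (adjusted p = 0.0521).

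Without both arrays of number 2 on NAA, the calls of AT2G37870, BCAT4, CCR2, GSTU18, MYBC1, PGLR, UGT74C1, UGT76B1 and XTH20 were lost too. The control for 25S ribosomal RNA, which enters no test, read 12030 with antimycin A on NAA, above 6081 in untreated seedlings on NAA.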

How the results depend on the processing

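Among the effects on NAA of the genes named above, 127 were called. In 25 other settings 116 of these kept the call in all that held their probe set, 11 lost it in at least 1 and 0 changed sign. The settings with a minimum mean intensity left out the dim probe sets. Of 45 called differences between the media 29 kept the call in all of the 24 settings that held their probe set. The other 16 lost it in at least 1. Among genes that were not called, SBPASE changed sign with array weights (0.0624, adjusted p = 0.7). With only probe sets of a mean intensity of at least 100, 1930 fell, 459 of them at 2-fold or more. With log2(intensity + 64), 641 rose and 396 fell at 2-fold or more. Leaving out 1 array at a time gave 2146 to 2694 rises and 2337 to 3009 falls, of which 958 to 1017 and 700 to 735 were at 2-fold or more. For the difference between media it gave 832 to 1223 more positive and 701 to 1102 more negative effects. Without both arrays of number 2 on NAA, a setting chosen after seeing the data, 633 differences were more positive and 579 more negative. With the 5′ to 3′ ratio of GAPDH as a covariate, also chosen after seeing the data, 2817 rose, 3361 fell and 1209 and 1067 differences were called. With the replicate number as a block 2699 rose, 2984 fell and 1122 and 1037 differences were called. Same-numbered arrays on NAA deviated together at correlations of 0.066, 0.314 and -0.102, so the numbers were not taken to pair the samples. The number of arrays limits the precision. Of the probe sets with a mean below 20, 20 rose and 28 fell at 2-fold or more.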
